A study of Mus musculus with 10 samples.

Results

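L/Z/eP is the population of leptotene, zygotene and early pachytene spermatocytes in a single-cell survey of the mouse testis, in which RNA (scRNA-seq) and accessible chromatin (scATAC-seq) were read from the same nuclei. Its cells are those that carry this name in the deposited cell tables. They number 8107 of 45250 cells by scRNA-seq and 41472 of 343866 cells by scATAC-seq. The deposited gene matrices hold a pooled value for each of 13 populations, and the L/Z/eP value of each gene was set against the values of the 8 other control germ cell populations. These are undifferentiated and differentiating spermatogonia (undiff. SpG and diff. SpG), preleptotene (pL), early leptotene to zygotene (eL/L/Z), middle and late pachytene (mP/lP) and diplotene (D) spermatocytes, round spermatids (RS) and elongating spermatids (ES).

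Nuclei came from testes of C57BL/6J wild-type mice aged 11, 17 or 25 days (dpp, days post-partum) and of a control (Cre/+) and a conditional knockout (Nfya-CKO) aged 8 weeks, with 1 library per condition and assay. Both 8-week-old groups carry an allele that makes Cre and a green reporter from Stra8, a gene expressed in spermatogonia and preleptotene cells, and in Nfya-CKO this Cre removes floxed exons of Nfya. The number of animals behind a library is not given in the sources used here. No difference between conditions can be checked against replicates, because cells do not count as replicates, and no p-value was computed. Nfya RNA was 1.11 UMIs (counted RNA molecules) per 10000 UMIs in the Nfya-CKO column of spermatogonia and 0.456 in control undiff. SpG. A value per gene does not separate the floxed exons from the rest of Nfya, so it does not check the label. In L/Z/eP it was 0.392, and its accessibility was 216 per 1000000.

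Prophase of the first meiotic division opens with programmed DNA breaks, made by SPO11 with its partner TOP6BL. The breaks are resected and repaired by strand exchange with the homologous chromosome, while the synaptonemal complex zips the homologs together from leptotene through zygotene to pachytene. The X and Y chromosomes, which have little homology, are then silenced in the pachytene sex body, and pachytene cells begin to make long precursors of PIWI-interacting RNAs (piRNAs).

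Every L/Z/eP cell lay in a single cluster per assay, which held no cell of another name. By scRNA-seq, 93.5% of L/Z/eP cells came from the 25 dpp library. Of eL/L/Z cells, 42.6% came from 25 dpp, 32.2% from 17 dpp and 23.7% from 11 dpp. Of mP/lP cells, 70.7% came from 25 dpp and 27.9% from Cre/+. Stage and library therefore cannot be told apart in the pooled values of these populations. L/Z/eP cells were shallow, with a median of 1633 UMIs and 893 genes, the lowest of the 9 control germ populations. The median was 2153 UMIs in eL/L/Z and 6969 in mP/lP, and 57.4% of L/Z/eP cells had under 1000 genes. By scATAC-seq, L/Z/eP cells had a median of 7203 fragments, and the enrichment of fragments at transcription start sites (TSS), at a median of 16.4, stood above the 13.3 of eL/L/Z and the 9.86 of mP/lP.

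Some cell barcodes occurred in several libraries. In scRNA-seq, 4540 barcodes were in 2 libraries and 497 in 3, and 10571 of all 45250 cells had a shared barcode. Among L/Z/eP cells, 267 (3.29%) shared their barcode with another library, namely 11 of 29 cells (11 dpp), 39 of 266 (17 dpp), 214 of 7599 (25 dpp) and 3 of 213 (Cre/+), counted by the prefix of the cell name. These cells had a median of 715 UMIs, against 1676 for the L/Z/eP cells with a barcode of their own. Sharing paired L/Z/eP cells with cells of another name 362 times, 220 times with an eL/L/Z cell, and in 274 of these pairs the other cell was the deeper. In scATAC-seq only 201 L/Z/eP cells (0.485%) shared a barcode. Shares without such cells are given beside the full ones, whereas the pooled gene values cannot be recomputed without them.

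By scRNA-seq, L/Z/eP cells were rare at 11 dpp, made up a large part of the 25 dpp testis and were not found in the library labelled Nfya-CKO, whereas by scATAC-seq they were present at each wild-type age. Intervals are exact Clopper-Pearson 95% intervals and cover counting error only. The 11 dpp library had 0.462% (0.310 to 0.663%), the 17 dpp library 7.10% (6.30 to 7.97%) and the 25 dpp library 42.0% (41.3 to 42.8%). In 8-week-old Cre/+ testes it was 1.77% (1.54 to 2.02%), and in the library labelled Nfya-CKO it was 0 of 5152 cells, which allows a share of up to 0.0582% when 3 cells are taken as the limit of a count of 0, and of up to 0.0716% by the exact interval. Without shared barcodes these shares were 0.331, 8.48, 43.3, 2.56 and 0%. The Cre/+ library then kept 8165 of its 11991 cells, and the library labelled Nfya-CKO 1331 of its 5152. With all cells counted, the intervals of the 5 libraries do not overlap, in the order 25 dpp, 17 dpp, Cre/+, 11 dpp and Nfya-CKO. Without shared barcodes, the intervals of 11 dpp (0.196 to 0.523%) and Nfya-CKO (up to 0.277%) overlap. Among germ cells only, they overlap as well (0.618 to 1.32% and up to 0.735%). A limit of 1000 genes per cell removed many of the shallow L/Z/eP cells and lowered the shares of the wild-type libraries to 0.0571, 2.74 and 28.2% by age and that of Cre/+ to 0.458%. The point values kept their order, but the 11 dpp share then rested on 3 of 5254 cells (0.0118 to 0.167%), and its interval overlaps that of the library labelled Nfya-CKO (0 of 2641 cells, up to 0.140%).

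**Figure D1:**
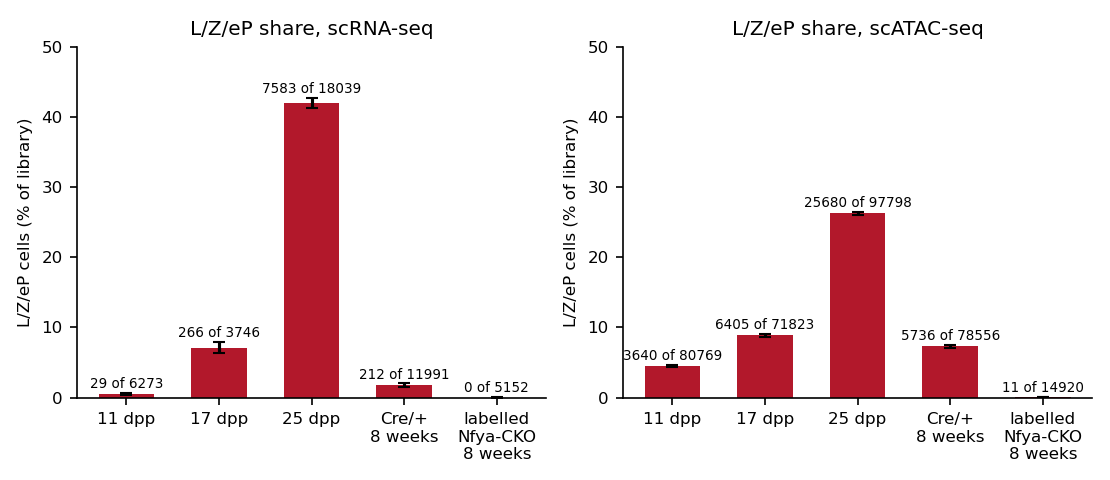
Share of L/Z/eP cells in each library, as percent of all cells of that library, by scRNA-seq (left) and scATAC-seq (right). Bars are single libraries, error bars are exact 95% intervals for counting error, and the printed counts are L/Z/eP cells of all cells. The 25 dpp bar is the highest in both assays, at 42.0% and 26.3%.

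By scATAC-seq L/Z/eP cells were 4.51, 8.92 and 26.3% of the wild-type libraries in order of age and 7.30% of Cre/+ cells. The library labelled Nfya-CKO held 11 L/Z/eP cells of 14920, or 0.0737% (0.0368 to 0.132%). Those 11 cells had a median of 1170 fragments and a median TSS enrichment of 4.55, whereas the L/Z/eP cells of the other libraries had medians from 5586 to 16543 fragments and from 15.3 to 20.4 in TSS enrichment. None of the 11 remained at a TSS enrichment of at least 8. With only germ cells in the denominator, L/Z/eP was 0.922, 8.28 and 43.4% of germ cells at 11, 17 and 25 dpp by scRNA-seq and 25.9, 40.8 and 30.2% by scATAC-seq, so that 17 dpp and not 25 dpp had the highest share in the second assay.

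Nuclei read by both assays show where the names part. The authors named scATAC-seq clusters with the help of the scRNA-seq names, so the names are not independent of each other. Among 31569 scATAC-seq cells with a name from RNA, 5805 were L/Z/eP by RNA, and 3343 of these, or 57.6% (56.3 to 58.9%), were L/Z/eP by chromatin as well. A further 1299 (22.4%) were mP/lP by chromatin, 899 (15.5%) were eL/L/Z and 136 (2.34%) were Sertoli cells, the somatic nurse cells of the tubule. By library, the name came from both assays in 12 of 18 such cells at 11 dpp, 12 of 153 at 17 dpp, 3293 of 5552 at 25 dpp, and 26 of 82 for Cre/+. At 17 dpp, 87 of the 153 were Sertoli cells by chromatin. In the other direction, 6937 scATAC-seq L/Z/eP cells had a name from RNA, and 48.2% were L/Z/eP, 21.4% eL/L/Z, 10.8% D and 8.79% mP/lP. At 11 dpp only 12 of 554 such cells were L/Z/eP by RNA and 372 were eL/L/Z, and at 17 dpp only 12 of 896 were L/Z/eP and 739 were eL/L/Z. At 25 dpp the share was 64.7%. For Cre/+ it was 6.5% (26 of 400 cells), with 81 named mP/lP by RNA.

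Of the 4 markers of the population, 3 were highest in L/Z/eP among the control germ populations. Values below are mean UMIs per 10000 for RNA and, for accessibility, signal per 1000000 over all nuclear genes. Sycp2, a lateral element protein of the synaptonemal complex, was 3.25 in undiff. SpG, 5.26 in diff. SpG, 3.85 in pL, 10.7 in eL/L/Z, 20.2 in L/Z/eP, 18.1 in mP/lP, 14.8 in D, 5.79 in RS and 4.26 in ES. Meiob, a single-strand DNA binding protein of recombination, was 0.871 in eL/L/Z, 1.59 in L/Z/eP and then 1.27 in mP/lP, and 0.125 in pL. Gm960, the gene of TOP6BL, was about level in eL/L/Z (0.920) and L/Z/eP (0.922) and was 0.254 in mP/lP. Spo11 goes against the label in part, since its RNA was 0.363 in eL/L/Z, 0.715 in L/Z/eP and highest in mP/lP at 0.999. In Sertoli cells, which should lack all 4 genes, the values were 0.756 for Sycp2, 0.0449 for Meiob, 0.101 for Gm960 and 0.0278 for Spo11.

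Accessibility of the markers did not follow RNA in each case. Sycp2 was most accessible in L/Z/eP (172, against 130 in eL/L/Z and 169 in mP/lP). Meiob had 85.4 in L/Z/eP, between the 68.1 of eL/L/Z and the 99.9 of mP/lP. Gm960 had 54.5, 46.7 and 38.2, and Spo11 27.5, 19.7 and 16.2 in the same order, so that accessibility at Spo11 was lower in the populations where its RNA was higher.

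**Figure D2:**
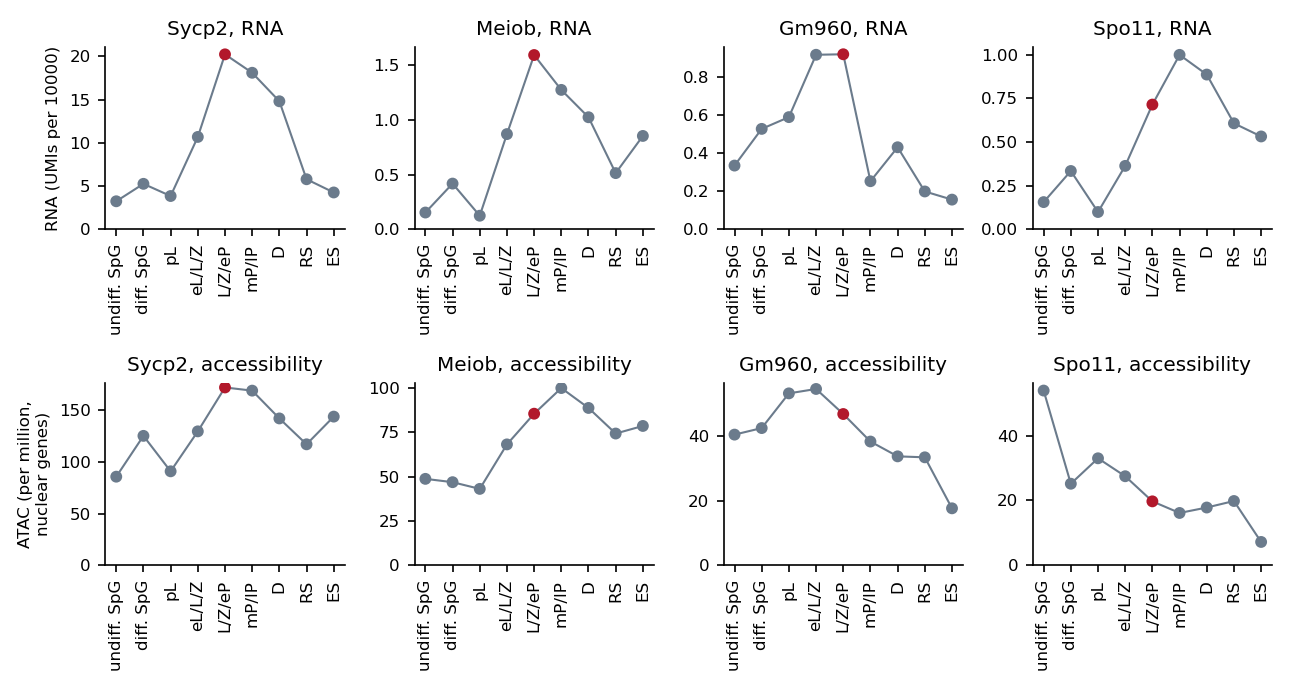
The 4 L/Z/eP markers across the 9 control germ populations, ordered by stage. The upper row gives RNA in UMIs per 10000 and the lower row accessibility per 1000000 over all nuclear genes, with 1 pooled value per population and L/Z/eP in red. Sycp2 and Meiob RNA are highest in L/Z/eP, at 20.2 and 1.59, and Spo11 RNA is highest in mP/lP, at 0.999.

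Promoter sequences are shown for both markers found in the RefSeq promoter table (2 of 4, on GRCm38.p6), because they are among the 4 markers of the population, and for Sycp1 and Ccnb3, which are described below. Each line runs from 250 bases before the start site to the base before it, in the direction of transcription, and all 4 genes lie on the minus strand. Capitals mark matches on either strand to CCAAT (the NF-Y box), TTCCCGCC (E2F), CNCCTCAG (STRA8), CACGTG (E-box), TGACGTCA (CRE) and TAACNG or CAACNG (MYB core). The positions are chr2:178407659-178407908 for Sycp2, chr19:4698669-4698918 for Gm960, chr3:102936101-102936350 for Sycp1 and chrX:7041620-7041869 for Ccnb3.
Sycp2: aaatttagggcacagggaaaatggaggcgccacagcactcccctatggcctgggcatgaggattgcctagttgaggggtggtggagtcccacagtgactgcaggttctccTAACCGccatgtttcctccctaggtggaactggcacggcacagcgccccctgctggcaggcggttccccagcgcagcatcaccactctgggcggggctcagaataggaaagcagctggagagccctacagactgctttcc
Gm960: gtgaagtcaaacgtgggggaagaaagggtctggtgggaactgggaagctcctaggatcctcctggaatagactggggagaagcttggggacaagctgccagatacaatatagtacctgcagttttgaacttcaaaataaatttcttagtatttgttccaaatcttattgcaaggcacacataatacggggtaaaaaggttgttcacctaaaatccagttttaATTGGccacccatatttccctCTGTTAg
Sycp1: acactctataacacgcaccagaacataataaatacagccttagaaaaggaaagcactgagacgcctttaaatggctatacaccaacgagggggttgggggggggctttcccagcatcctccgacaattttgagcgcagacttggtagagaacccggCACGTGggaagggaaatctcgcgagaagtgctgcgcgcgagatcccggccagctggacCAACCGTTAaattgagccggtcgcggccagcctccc
Ccnb3: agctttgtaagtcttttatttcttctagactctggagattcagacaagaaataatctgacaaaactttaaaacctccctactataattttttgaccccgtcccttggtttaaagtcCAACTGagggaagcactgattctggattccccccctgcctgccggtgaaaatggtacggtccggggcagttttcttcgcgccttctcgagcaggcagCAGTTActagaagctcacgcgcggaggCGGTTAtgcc

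Sycp2 has a TAACNG match 140 bases before the start site. Gm960 has CCAAT on the opposite strand 28 bases before the start and TAACNG 7 bases before it. Sycp1 has CACGTG 94 bases before the start, and CAACNG and TAACNG matches that overlap 36 and 33 bases before it. Ccnb3 has CAACNG 134 bases and TAACNG 37 and 10 bases before the start. These are letter matches only. Of all 27025 promoters in the table, each read from 250 bases before to 50 bases after the start, 25.9% hold TAACNG, 38.3% CAACNG, 41.1% CCAAT, 8.09% CACGTG, 9.12% CNCCTCAG, 2.52% TTCCCGCC and 2.03% TGACGTCA.

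Few genes were set apart in L/Z/eP from every other germ population. Ratios of RNA are of value + 0.1, which understates the change of weakly expressed genes. Of 13657 genes with an L/Z/eP value of at least 0.05, 828 (6.06%) were highest there. After centring on the median of all genes, which lifts each ratio by a like amount, 129 were at least 2-fold above the next population. Without centring only 1, or 0.00732%, was. It was the unannotated transcript Gm26870, at 5.98 in L/Z/eP, 1.92 in eL/L/Z and 2.60 in mP/lP. With it, 9 genes were at least 1.5-fold above. Sycp1, which forms the transverse filaments that zip the homologs together, was 15.3 in eL/L/Z, 25.3 in L/Z/eP and then 16.6 in mP/lP. Bod1l, a protector of replication forks, was 3.58, 5.87 and 2.86 in the same order. The others were Sapcd1, Gm44767, Slc18a1, 4732471J01Rik and the pair 2900060B14Rik and 1-qE2.3-2.1. This pair had the same accessibility in each population and near-equal RNA (0.348 and 0.332), as rows of overlapping transcripts would. Terb1, which ties telomeres to the nuclear envelope, came next among meiotic genes, at 1.23, 1.93 and 1.29. Only 4 of the 9 genes have a promoter in the table. Of these 4, CCAAT is in 3, CNCCTCAG and TAACNG are each in 2, TTCCCGCC, CACGTG and CAACNG are each in 1 and TGACGTCA is in none, beside the shares of all promoters given above. With only the 150 bases before the start, CCAAT is in 2 of 4, against 27.7% of all promoters.

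Against eL/L/Z, the stage before, most spermatogonial genes were at least 2-fold lower in L/Z/eP. Replication genes mostly had lower values, with 5 of 23 at least 2-fold lower, and spermatid genes had higher ones, with 3 of 14 at least 2-fold higher. Of 13761 genes with a mean of at least 0.05, 831 (6.04%) were at least 2-fold higher in L/Z/eP and 606 (4.4%) at least 2-fold lower, and the median log2 ratio of all genes was -0.12. Centred on that median, the counts were 1028 and 413, and with a pseudocount of 0.5 they were 245 and 66. Of the 18 spermatogonial genes compared, 11 were at least 2-fold lower and none 2-fold higher, with a median log2 ratio of -1.45 (-0.83 with a pseudocount of 0.5). Sall4, a stem cell transcription factor, was 0.925 in eL/L/Z and 0.0689 in L/Z/eP. Zbtb16 (PLZF), a factor of undifferentiated spermatogonia, was 1.32 and 0.226. Dmrt1, which holds back meiotic entry, was 2.27 and 0.488, and Kit, the receptor of differentiating spermatogonia, 0.756 and 0.178. The D-type cyclins Ccnd1 (1.27 and 0.198) and Ccnd2 (1.82 and 0.309), which drive entry into the mitotic cycle, also ranked among the 15 genes with the largest decreases. Id4 was the only spermatogonial gene with a higher value in L/Z/eP (0.392 and 0.842), and it went on to 1.57 in mP/lP.

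Replication genes had a median log2 ratio of -0.68 against eL/L/Z, with 5 of 23 at least 2-fold lower, against 4.4% of all genes compared. Mcm2 and Mcm4, subunits of the replicative helicase, were 0.461 and 0.588 in eL/L/Z and 0.101 and 0.206 in L/Z/eP. Dnmt1, the maintenance DNA methyltransferase, was 2.46 and 0.923. Mki67, a chromosome surface protein used as a proliferation marker, did not follow them, at 5.52 in eL/L/Z and 5.99 in L/Z/eP, then 1.39 in mP/lP. Top2a, a topoisomerase, was 6.10, 5.82 and 4.77. Stra8, the factor that switches germ cells to meiosis, was 4.86 in pL, 2.67 in eL/L/Z, 0.964 in L/Z/eP and then 0.272 in mP/lP. Its partner Meiosin, listed as Gm4969, was 0.285 in eL/L/Z, 0.294 in L/Z/eP and then 0.0462 in mP/lP. Of the 6 meiotic entry genes compared, 3 were at least 2-fold higher in L/Z/eP than in mP/lP (Stra8, Gm4969 and Taf4b), where 4.03% of all genes compared were, and 1, Stra8, at least 2-fold lower than in eL/L/Z.

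Sertoli markers moved with these decreases. All 7 (Sox9, Clu, Wt1, Amhr2, Rhox8, Cldn11 and Aard) had lower values in L/Z/eP than in eL/L/Z, with 3 at least 2-fold lower, against 4.4% of all genes compared. None of the 7 markers was at 0. Their sum was 20.2 in eL/L/Z, 8.93 in L/Z/eP, 3.89 in mP/lP and 104 in Sertoli cells. Of the 606 genes that were 2-fold lower in L/Z/eP, 65.8% had a level in Sertoli cells at least 2-fold that of L/Z/eP, while 2748 of all 13761 genes compared did. For undiff. SpG the shares were 86.3% and 20.9%. Macrophage, peritubular and endothelial markers summed to at most 0.429 in these 3 germ populations, and Leydig markers to at most 0.435. The part of Sertoli RNA in the decreases was not tested.

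Lists of pachytene cells and later stages mostly had higher values in L/Z/eP than in eL/L/Z, where 6.04% of all genes compared were at least 2-fold higher and 4.4% at least 2-fold lower. Pachytene transcription factors had a median log2 ratio of 0.68, with 2 of 12 at least 2-fold higher, and 11 of 12 had a higher value. Mybl1 (A-MYB), the activator of pachytene genes and piRNA precursors, was 0.811 in eL/L/Z, 1.42 in L/Z/eP and then 1.51 in mP/lP. Tcfl5, which works with it, was 1.14, 1.51 and 2.64. Rfx2, a factor for cilia and spermatid genes, was 0.774, 1.79 and 3.13, and Kctd19, a partner of the repressor ZFP541, was 0.844, 2.41 and 4.49. Taf7l, which is on the X chromosome, was the exception at 2.67, 1.46 and 0.451. Of the 23 genes of the piRNA pathway, 3 were at least 2-fold higher (Piwil1, Tdrd6 and Exd1) and 1, Piwil4, at least 2-fold lower. Piwil1 (MIWI), the PIWI protein loaded with pachytene piRNAs, was 1.64, 4.85 and 11.4 in eL/L/Z, L/Z/eP and mP/lP. Tdrd6, a scaffold of germ granules, was 0.300, 1.10 and 2.75. Exd1 was 0.619, 1.38 and 1.94. Of 22 genes compared with mP/lP, Piwil1 and Tdrd6 were at least 2-fold lower in L/Z/eP, where 1.57% of all genes compared were. Only Tex15 was 2-fold higher, near the 4.03% of all genes.

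All 14 spermatid genes had higher values in L/Z/eP than in eL/L/Z, and 3 were at least 2-fold higher, against 6.04% of all genes compared. Ldhc, a lactate dehydrogenase of germ cells, was 1.80 in eL/L/Z, 5.40 in L/Z/eP and then 11.7 in mP/lP, and Acr, the acrosomal protease acrosin, 0.217, 0.655 and 1.43. The 4 elongating spermatid markers (Prm1, Prm2, Tnp1 and Tnp2) summed to 0.275 in eL/L/Z, 0.741 in L/Z/eP, 3.46 in mP/lP and 118 in ES. The 3 round spermatid markers (Acrv1, Acr and Spaca1) summed to 0.465, 1.31 and 2.34, and to 12.2 in RS. Prm1, which packs sperm DNA, was 0.135 in L/Z/eP and 0.00525 in pL, whereas diff. SpG, an earlier population, had 3.94. Among the 15 largest increases were Spag16 and Spag17, parts of the central apparatus of the sperm tail (1.66 and 1.14 in eL/L/Z, 8.46 and 5.77 in L/Z/eP), the scaffold gene Magi2 (1.44 and 7.24) and Cyp19a1, the aromatase gene (0.802 and 4.32). All 15 were at least 4.71-fold higher on the value + 0.1 scale. Cyp19a1 was 9.19 in mP/lP and 0.0159 in Sertoli cells. Its RNA values lay near those of 9-qA5.3-24188, a locus named by chromosome band (0.769, 4.10 and 8.80 in eL/L/Z, L/Z/eP and mP/lP). Whether these rows overlap was not tested.

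**Figure D3:**
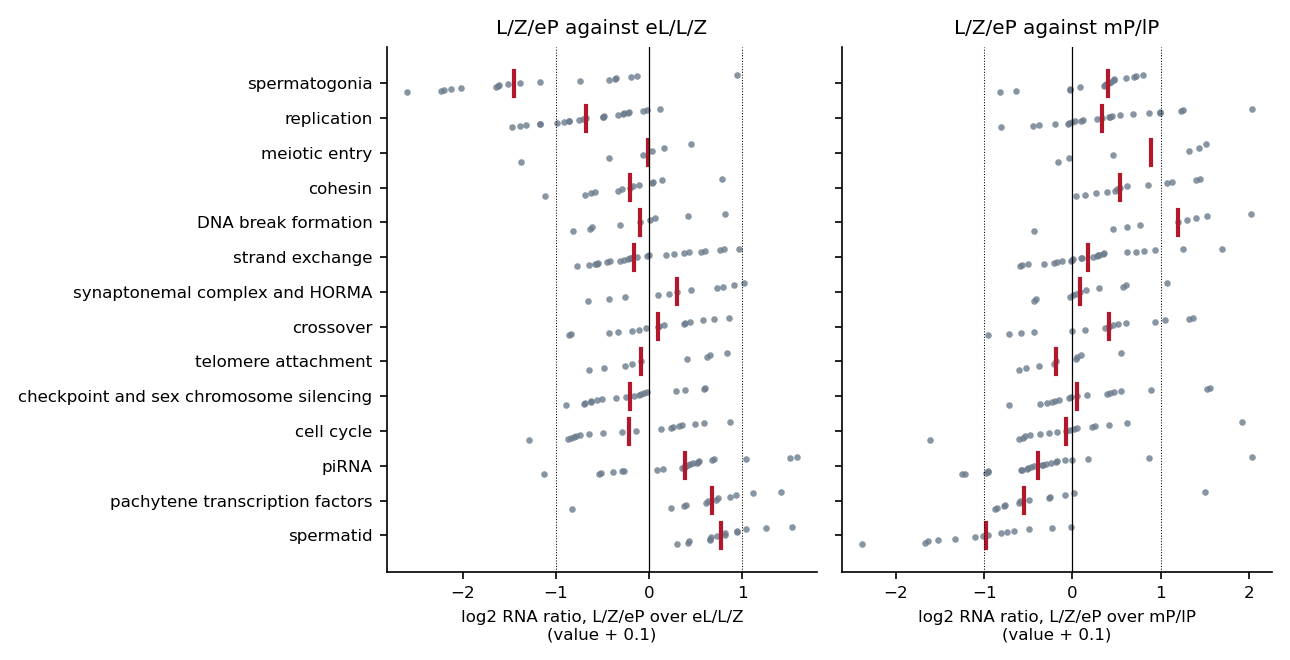
Log2 ratio of RNA (value + 0.1) of each gene in 14 lists, L/Z/eP over eL/L/Z (left) and over mP/lP (right). Grey points are genes, red lines are list medians and dotted lines mark 2-fold. The spermatogonia list has the lowest median on the left (-1.45), and DNA break formation has the highest on the right (1.20).

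On the value + 0.1 scale, no gene of the break formation, strand exchange and crossover lists was 2-fold apart between L/Z/eP and eL/L/Z. Nearest to it was Mcmdc2 of strand exchange, at 0.330 in eL/L/Z and 0.737 in L/Z/eP, or 1.95-fold on that scale. Against mP/lP, 5 of 9, 2 of 24 and 3 of 16 of their genes were at least 2-fold higher in L/Z/eP, and 4 of 13 cohesin genes were. Of 13394 genes compared with mP/lP, 540 (4.03%) were at least 2-fold higher in L/Z/eP and 210 (1.57%) at least 2-fold lower, and the median log2 ratio was 0.09. Centred on that median, the counts were 385 and 307, and with a pseudocount of 0.5 they were 92 and 60. Of 9 break formation genes, 5 were at least 2-fold higher in L/Z/eP than in mP/lP and none 2-fold apart from eL/L/Z, with medians of 1.20 and -0.09. The first was 0.58 with a pseudocount of 0.5, and the second 0.02 once ratios were centred on the median of all genes. Prdm9, the methyltransferase that places breaks at hotspots, was 1.16 in eL/L/Z, 1.22 in L/Z/eP and then 0.224 in mP/lP. Zcwpw1, the reader of the marks PRDM9 leaves, was 2.08, 1.95 and 0.789. Mei1 was 1.19, 0.737 and 0.217, and Mei4, a part of the break machinery, 0.726, 0.367 and 0.0902. Gm960, given above, was the other gene of the 5. Spo11 ran the other way.

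In strand exchange, the median log2 ratio against mP/lP was 0.17. Of 24 genes, 2 were at least 2-fold higher in L/Z/eP, beside 4.03% of all genes compared. Both act in loading the strand exchange filament. Dmc1, the meiotic recombinase, was 2.22 in eL/L/Z, 1.88 in L/Z/eP and then 0.508 in mP/lP, and Brca2, the loader, 4.55, 5.18 and 2.11. Psmc3ip (HOP2) and Swi5, cofactors of the recombinases, had their highest values of the 3 stages in mP/lP, at 1.20 and 3.88 against 0.761 and 2.58 in L/Z/eP. Mnd1 and Sfr1 of the same list did not, at 0.123, 0.201 and 0.134 and at 2.47, 1.97 and 1.25 in eL/L/Z, L/Z/eP and mP/lP. On the value + 0.1 scale, no gene of this list was 2-fold apart from eL/L/Z. Rpa2, of the general single-strand binding complex, was 0.917, 0.495 and 0.547, while the value of Meiob was highest in L/Z/eP.

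Synaptonemal complex and HORMA domain genes had a median log2 ratio of 0.29 against eL/L/Z and 0.09 against mP/lP. Their summed RNA was 46.0, 67.1 and 53.3 in eL/L/Z, L/Z/eP and mP/lP. Most of each sum came from Sycp1 (15.3, 25.3 and 16.6) and the marker Sycp2 (10.7, 20.2 and 18.1). Of 11 genes, 1 was at least 2-fold higher than in eL/L/Z, beside 6.04% of all genes compared. It was Syce3, a central element protein, at 0.505, 1.13 and 0.891. Hormad1, which marks unsynapsed axes, was 2.02, 3.56 and 3.33, and Sycp3, of the lateral element, 2.42, 2.81 and 3.82. The gene 4930447C04Rik (Six6os1), a central element protein, was 8.54, 7.11 and 3.33, the 1 gene of the list 2-fold higher than in mP/lP. Of all genes compared with mP/lP, 4.03% were. Trip13, which strips HORMAD proteins from synapsed axes, was 0.807, 0.477 and 0.472.

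All 13 cohesin genes, which hold sister chromatids together, had higher values in L/Z/eP than in mP/lP (median log2 ratio 0.54). Of these, 4 were at least 2-fold higher, against 4.03% of all genes compared. The 4 were Smc3 (2.96 in L/Z/eP against 1.06 in mP/lP), Smc1a (0.628 and 0.167), Stag1 (4.17 and 1.92) and Stag2 (0.444 and 0.149). Smc1a and Stag2 are on the X chromosome. Among the meiosis-specific subunits, Smc1b was 8.06 and 4.41, Stag3 2.29 and 2.22, and Rec8 0.246 and 0.138. Rad21, the mitotic kleisin, was the only member 2-fold apart from eL/L/Z, at 1.66 there and 0.707 in L/Z/eP. Of all genes compared with eL/L/Z, 4.4% were at least 2-fold lower.

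Crossover genes had median log2 ratios of 0.10 against eL/L/Z and 0.42 against mP/lP. Of 16, 3 were at least 2-fold higher than in mP/lP, against 4.03% of all genes compared. These were Msh5 (1.04, 1.44 and 0.646 in eL/L/Z, L/Z/eP and mP/lP), which stabilises recombination intermediates, the X-linked Tex11 (1.62, 0.850 and 0.268) and the helicase gene Brip1 (1.11, 0.799 and 0.259). Later-acting Mlh3 (0.625, 0.985 and 1.68) and Cntd1 (0.866, 1.64 and 3.29) had their highest values in mP/lP. Telomere attachment genes had medians of -0.09 and -0.18, with none of 9 genes 2-fold apart from either neighbour. Of the checkpoint and silencing genes, 2 of 17 were at least 2-fold higher than in mP/lP, against 4.03% of all genes compared. They were Atm (1.93, 1.16 and 0.338) and the X-linked Scml2 (3.11, 1.98 and 0.605). Atr, the kinase of sex chromosome silencing, was 5.24, 7.92 and 7.61, and its adaptor Mdc1 1.85, 2.85 and 3.17.

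Among the 15 genes most above mP/lP, 6 are on the X chromosome: Pet2 (5.10 in L/Z/eP against 0.984 in mP/lP), Thoc2 (4.10 and 0.941), Tex16 (1.25 and 0.243), Med12 (1.21 and 0.264), the chromatin remodeller Atrx (2.02 and 0.410), and Ccnb3, a cyclin of meiosis (1.18 and 0.237). Autosomal genes near the top were Eml5 (3.47 and 0.675), Sdk1 (4.29 and 0.859), Tex15, a factor of transposon silencing and recombination (12.1 and 2.86), Mki67, Prdm9 and Kmt2a, a histone methyltransferase (3.35 and 0.807). Sertoli markers were again on the side of the earlier stage, with 7 of 7 higher in L/Z/eP than in mP/lP and 6 at least 2-fold, against 4.03% of all genes compared. Of the 540 higher genes, 39.6% had a level in Sertoli cells at least 2-fold that of L/Z/eP, against 17.3% of all genes compared. Lower in L/Z/eP than in mP/lP were 7 of 14 spermatid genes by at least 2-fold, against 1.57% of all genes compared, among them Prm1 (0.135 and 1.13), Tnp2, a transition protein (0.375 and 1.38), and Odf1, of the sperm tail (0.148 and 0.689). Pkmyt1, a kinase that holds back CDK1, was 0.596 and 2.03. Of 17 cell cycle genes, Pkmyt1 was the only 1 at least 2-fold lower than in mP/lP and Ccnb3 the only 1 at least 2-fold higher. The shares of all genes compared were 1.57% and 4.03%. Of 18 compared with eL/L/Z, 1 was 2-fold apart, Ccna2 (0.904 in eL/L/Z and 0.309 in L/Z/eP). Of all genes compared there, 4.4% were at least 2-fold lower and 6.04% at least 2-fold higher, so this count is no trait of the list. In the replication list, Mki67, Pola1 and Pole were at least 2-fold higher than in mP/lP, or 3 of 23 genes, beside the 4.03% of all genes. No spermatogonial gene was 2-fold apart from mP/lP.

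X-linked RNA was intermediate in L/Z/eP. The sum over X-linked genes was 2.43% of the autosomal sum in eL/L/Z, 1.68% in L/Z/eP and then 0.616% in mP/lP, the lowest of the 9 populations. It was 1.14% in D and 1.33% in RS. Of 398 X-linked genes compared with mP/lP, 391 had a higher value in L/Z/eP and 124 (31.2%) were at least 2-fold higher, against 56.6% and 3.24% of 12170 autosomal genes. The median log2 ratio was 0.76 for X-linked and 0.07 for autosomal genes, a difference of 0.68 that was 1.16 with a filter at 0.2 and 0.25 with a pseudocount of 0.5. Against eL/L/Z the medians were -0.44 and -0.12, a difference of -0.32 that was -0.13 with that pseudocount, with 28 of 458 X-linked genes (6.11%) at least 2-fold lower, near the 4.44% of autosomal genes, and 1 (0.218%) at least 2-fold higher, against 5.56% of autosomal genes. Of 9 Y-linked genes, 9 were higher in L/Z/eP than in mP/lP and 5 at least 2-fold, against 56.6% and 3.24% of autosomal genes. Of 10 compared with eL/L/Z, 3 were higher and none was 2-fold apart.

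Accessibility of the X went the other way. X-linked signal was 1.63% of autosomal signal in eL/L/Z, 1.77% in L/Z/eP and then 2.22% in mP/lP, the highest of the 9 populations. On the scale of nuclear genes, 291 of 766 X-linked genes (38.0%) were at least 1.5-fold less accessible in L/Z/eP than in mP/lP and none was 1.5-fold more accessible, against 4.68% and 4.13% of 17825 autosomal genes, with a median log2 ratio of -0.41 against 0.03 for autosomal genes. The difference of these medians, -0.44, was -0.15 with a filter at 20 per 1000000. Pet2, for example, had 11.7 in L/Z/eP against 22.4 in mP/lP, and Scml2 5.83 and 10.7, both with RNA that was higher in L/Z/eP. The same direction of accessibility was not seen at each X-linked gene, since Tex11 had 26.0 and 24.6.

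**Figure D4:**
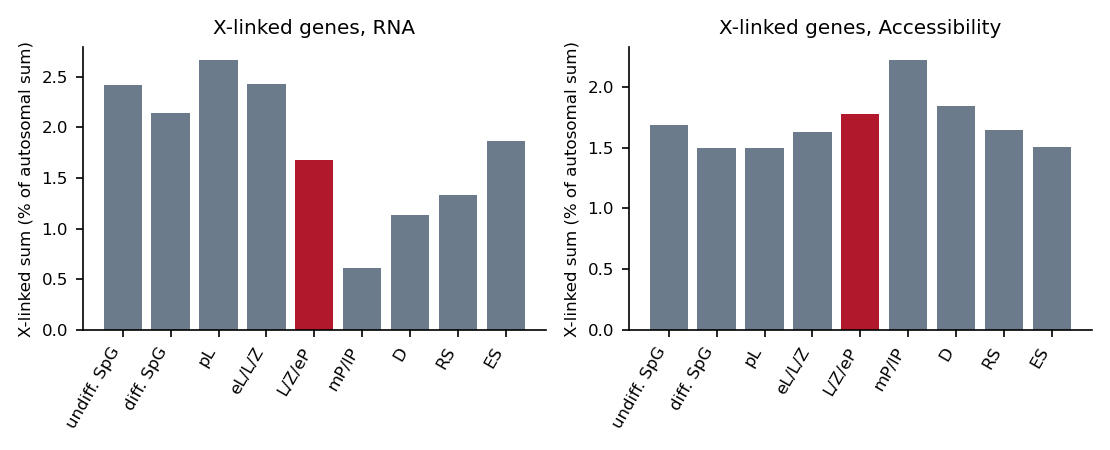
Summed RNA (left) and accessibility (right) of X-linked genes as percent of the autosomal sum in each control germ population, with L/Z/eP in red. L/Z/eP lies between its neighbours in both, at 1.68% of RNA and 1.77% of accessibility, while mP/lP has the lowest RNA (0.616%) and the highest accessibility (2.22%).

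A set of 100 loci named by chromosome band, a naming used for piRNA precursor genes, also stood between the neighbours. The set was put together after its values had been seen, so its counts are a description. Several of these rows have near-equal values with a neighbour or with an annotated gene, such as 12-qE-23911 and 12-qE-7089, and are not independent. Their summed RNA was 10.8 in pL, 57.8 in eL/L/Z, 215 in L/Z/eP, 437 in mP/lP and 261 in D, with 60.2 in diff. SpG. Of 98 loci compared with eL/L/Z, 80 were at least 2-fold higher in L/Z/eP, against 6.04% of all genes compared. Of 100 compared with mP/lP, 49 were at least 2-fold lower, against 1.57% of all genes, and 1 at least 2-fold higher, against 4.03%. The locus 10-qB4-6488 was 3.15 in eL/L/Z, 14.8 in L/Z/eP and then 31.3 in mP/lP, 2-qF1-2536 was 2.54, 10.3 and 23.1, and 7-qD1-19431 was 1.29, 6.47 and 15.2. The locus 3-qA2-617 (1.21, 6.96 and 12.5) had the largest increase over eL/L/Z of all genes with a mean of at least 0.2.

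Across these 3 stages, accessibility at the loci rose with the RNA. Its median was 11.3 per 1000000 of nuclear signal in eL/L/Z, 32.0 in L/Z/eP and then 63.6 in mP/lP, with 80 of 97 loci at least 1.5-fold higher than in eL/L/Z and 80 of 100 at least 1.5-fold lower than in mP/lP, where 5.28% and 7.05% of all genes compared were. The locus 7-qD1-19431 had 7.04, 29.8 and 66.6 in eL/L/Z, L/Z/eP and mP/lP. At 10-qB4-6488 the values were 155, 163 and 165, so that this locus was accessible to a like degree while its RNA differed. The order did not hold over all populations, since RS had a lower summed RNA than L/Z/eP (110 against 215) and a higher median accessibility (50.5 against 32.0).

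**Figure D5:**
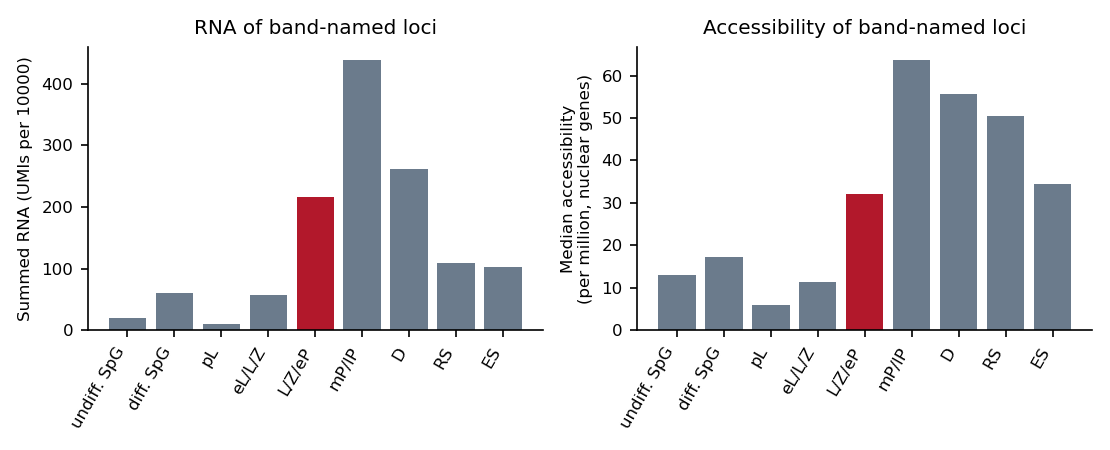
The 100 band-named loci across the 9 control germ populations: summed RNA in UMIs per 10000 (left) and median accessibility per 1000000 of nuclear signal (right), with L/Z/eP in red. Both are higher in L/Z/eP (215 and 32.0) than in eL/L/Z (57.8 and 11.3) and lower than in mP/lP (437 and 63.6).

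Over all genes, the comparison of accessibility depended on mitochondrial DNA. Mitochondrial genes took 63.8% of the signal in the L/Z/eP column, the most of the 9 populations, against 45.4% in eL/L/Z, 60.3% in mP/lP and 31.2% in pL. On the scale of all signal, 8675 of 15993 genes (54.2%) were at least 1.5-fold lower in L/Z/eP than in eL/L/Z and 90 (0.563%) at least 1.5-fold higher, with a median log2 ratio of -0.61. Scaled to nuclear genes, 1054 of 19945 (5.28%) were higher and 954 (4.78%) lower, with a median of -0.03. Against mP/lP, 247 of 14968 (1.65%) were higher and 956 (6.39%) lower on the scale of all signal, and 816 of 21144 (3.86%) and 1491 (7.05%) on that of nuclear genes.

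On the scale of nuclear genes, the spermatid list was the list with the most calls against eL/L/Z. Of its 12 genes, 9 were at least 1.5-fold more accessible in L/Z/eP, against 5.28% of all genes compared. Against mP/lP, 9 of 14 were at least 1.5-fold less accessible, where 7.05% of all genes compared were. Acr had 9.51 in eL/L/Z, 27.9 in L/Z/eP and then 55.6 in mP/lP, and Ldhc 16.0, 34.1 and 64.8. Of 19 spermatogonial genes, 4 were at least 1.5-fold less accessible in L/Z/eP than in eL/L/Z, and 6 at least 1.5-fold more accessible than in mP/lP. The shares of all genes compared were 4.78% and 3.86%. Dmrt1, for example, had 93.3, 65.3 and 31.0, and Zbtb16 52.2, 34.3 and 21.9. In the lists of break formation, strand exchange, crossover and telomere attachment, no gene was 1.5-fold apart from either neighbour. They had 8, 24, 15 and 9 genes compared with eL/L/Z, and 9, 24, 15 and 9 with mP/lP. Of all genes compared, 5.28% were higher and 4.78% lower than in eL/L/Z, and 3.86% and 7.05% than in mP/lP. In lists this short, a count of 0 says little. Prdm9, whose RNA was 1.22 in L/Z/eP against 0.224 in mP/lP, had an accessibility of 85.4 and 97.8.

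Further genes were taken from the 10 largest ratios each way on the scale of all signal among genes averaging at least 20 on it, and their values are given on the scale of nuclear genes, where they need not rank highest. More accessible in L/Z/eP than in eL/L/Z were the cilia gene Rsph1 (85.7 and 45.4), Sfi1 (124 and 64.8), 1700102P08Rik (66.6 and 32.5) and band-named loci such as 9-qC-31469 (67.2 and 33.2). Less accessible were the developmental regulators Hoxa9 (31.1 and 54.0) and Zfp503 (36.7 and 62.9), with RNA of at most 0.0426 in both populations, Gli3 (37.0 and 62.9), whose RNA was 0.306 in L/Z/eP and 1.12 in eL/L/Z, and Dusp6, a feedback phosphatase of growth factor signalling (32.9 and 59.9). Gm42418, AY036118 and Gm26917 were in this group too, each with over 1000 in both populations. More accessible in L/Z/eP than in mP/lP were the histone genes Hist1h1c (107 and 52.2), Hist1h3c (82.8 and 41.7), Hist1h2bb (85.4 and 43.8), Hist1h4j (74.0 and 39.1) and Hist1h1a (142 and 76.2), though their RNA was at most 0.0756 in L/Z/eP. Arhgef17 (76.2 and 37.2) and Zyg11a (72.6 and 36.5) belonged to the same 10 genes. Histone genes have near-identical copies, which the counting may not separate.

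As a description across genes, which are not independent, RNA of L/Z/eP had Spearman correlations of 0.939 with mP/lP, 0.895 with D, 0.894 with eL/L/Z and 0.744 with pL over 14947 genes. Accessibility had 0.977 with eL/L/Z, 0.973 with mP/lP and 0.849 with ES over 22013 genes. By scRNA-seq names most cells of both L/Z/eP and mP/lP came from the 25 dpp library. By scATAC-seq names 61.9% of L/Z/eP and 40.7% of mP/lP cells did, and 55.7% of mP/lP cells came from Cre/+. The pooled accessibility values also cover diff. SpG, pL, D and ES, which are not among the scATAC-seq names. Which cells each of these values pools is not stated. Among cells with both assays, 95.6% of L/Z/eP and 70.1% of mP/lP cells by scRNA-seq names came from 25 dpp. For mP/lP, 28.7% came from Cre/+.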

How the data were processed

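RNA and accessible chromatin of testis nuclei were read with the BD Rhapsody system. Per the labels and the study's methods, the authors aligned reads to mm10 (STAR 2.7.10b for scRNA-seq, BWA 0.7.12 for scATAC-seq), filtered cells, removed doublets and named populations from marker genes with Seurat 5.2.1 and ArchR 1.0.3. The deposited cell tables give the count of UMIs, genes or fragments of each cell, its percent of mitochondrial UMIs, its fraction of reads in promoters, and its TSS enrichment, a ratio, all made by the authors. The authors deposited gene matrices as the natural log of 1 plus a mean per population. That each column sums to 10000 after conversion was found from the values. The study's methods describe pooled tracks per cell type and promoter coverage around start sites, on a per-million scale. They do not say that these matrices were made that way, so the region counted per gene is not known here. Of the tables' columns, 15 were left aside.

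Values were converted back with numpy 2.4.6, pandas 2.3.3 and scipy 1.17.1 under Python 3.11.15. RNA ratios were of value + 0.1 where both values averaged at least 0.05 (for the comparison with every other germ population, an L/Z/eP value of at least 0.05), and accessibility, scaled to a sum of 1000000, as that of value + 1 where they averaged at least 5. Mitochondrial genes were in the sum of the first accessibility scale only. Genes were called by size alone, at 2-fold for RNA and 1.5-fold for accessibility. Each call rule was run on simulated data with known upward changes, set away from the cutoff in genes well above the filter. This checks the arithmetic of the rules only. It does not cover lower calls or the noise of shallow pooled values. Members of the population, its markers and all gene lists were chosen with earlier results of these data known. Genes named are the 4 markers, list members, the 15 largest RNA ratios each way averaging at least 0.2 (20 for the comparison with every other population), the 10 largest accessibility ratios each way averaging at least 20, and Nfya. The band-named loci were added after their values were seen. Chromosomes and promoters are from RefSeq for GRCm38.p6, the build of mm10; 23738 of 28125 RNA rows and 25535 of 30670 accessibility rows matched. Alternatives covered pseudocounts, filters, scaling, cell filters and shared barcodes, the last chosen after seeing the data, as was the nuclear scale for the X-linked difference. A count was held to be kept within 1.5 times, and a share when inside the interval of the reported value.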

Additional observations from a re-analysis of the deposited data

How the results depend on the processing

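No paired analysis was possible because each group is 1 library per assay. Counts of RNA calls moved mainly with the pseudocount. Against eL/L/Z, 1563 genes were higher and 1457 lower with 0.02, and 245 and 66 with 0.5. Against mP/lP the counts were 1366 and 392, and 92 and 60. Centring ratios on the median moved the share of higher calls from 57.8% to 71.3% against eL/L/Z and from 72.0% to 55.6% against mP/lP. For genes above every other population there were 2 with a pseudocount of 0.02 and 129 after centring, which lifts each ratio by a like amount. For accessibility against eL/L/Z, counts of higher and lower genes were 50 and 5322 with a pseudocount of 5, 0 and 4080 with a filter at 20 per 1000000, 1054 and 954 without mitochondrial genes, and 481 and 371 after centring, with 421 higher genes without a filter. Against mP/lP they were 48 and 358, 33 and 140, and 816 and 1491, with 463 higher genes after centring and 2297 lower genes without a filter.

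By scRNA-seq, shares at 11, 17 and 25 dpp and in Cre/+ were 0.0571, 2.74, 28.2 and 0.458% with at least 1000 genes per cell. Among germ cells only they were 0.922, 8.28 and 43.4% at 11, 17 and 25 dpp. Without shared barcodes they were 8.48, 43.3 and 2.56% at 17 and 25 dpp and in Cre/+, and 40.5% at 25 dpp with under 2% mitochondrial UMIs. By scATAC-seq, shares in the same order, with Nfya-CKO last, were 9.39, 15.5, 32.1, 10.1 and 0.0144% with at least 3000 fragments and 25.9, 40.8, 30.2, 7.54 and 0.354% among germ cells. With a TSS enrichment of at least 8 the 11 dpp, 25 dpp, Cre/+ and Nfya-CKO libraries had 4.84, 28.0, 11.5 and 0%. Agreement of the names was 59.6% with at least 3000 fragments, 59.8% with a TSS enrichment of at least 8 and 59.3% at 25 dpp alone. The cause of these shifts was not tested. Of 204 alternative values for medians of gene lists, 195 kept their sign and stayed within 1.5-fold and 3 moved further. The other 6 changed sign, each near 0. After centring, the medians against eL/L/Z were 0.0201 for break formation, 0.0291 for telomere attachment, 0.0981 for meiotic entry and 0.0371 for the 1 macrophage marker compared. That of the checkpoint list against mP/lP was -0.0155 with a filter at 0.2 and -0.0289 after centring. Differences between X-linked and autosomal median log2 ratios kept their sign but not their size. For RNA the difference against mP/lP was 0.682, 1.16 with a filter at 0.2 and 0.252 with a pseudocount of 0.5, and against eL/L/Z it went from -0.324 to -0.129 with that pseudocount. For accessibility against mP/lP it was -0.238 on the scale of all signal and -0.435 on that of nuclear genes, or -0.153 with a filter at 20. Against eL/L/Z a filter at 20 lowered it from 0.109 to 0.0494, and to 0.061 on the nuclear scale. Of the 9 genes at least 1.5-fold above every other population, 3 promoters held CCAAT. The 1 gene of the 2-fold rule has no promoter in the table, so its count of 0 says nothing. Weakly expressed genes rest on few UMIs per cell, and the number of UMIs behind a pooled value is not given.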
